A study of Mus musculus with 6 samples.

Results

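Adipogenesis, the conversion of a mesenchymal precursor into a fat cell, was followed through 10 genes chosen by name. They are 5 transcription regulators, Pparg, Cebpa, Cebpb, Cebpd and Zfp423, and 5 genes of lipid handling, Lpl, Cd36, Fabp4, Fabp5 and Plin2. The 10 genes were found by Ensembl identifier among the 53801 genes counted in the series, and each matched 1 identifier. MC3T3-E1, the cell studied, is a mouse pre-osteoblast line. All 6 libraries came from cells infected with a lentivirus that also carried ZsGreen1 and a puromycin resistance gene, and selected in 5 μg/ml puromycin for 7 days. The 3 Control libraries carried a scrambled RNA that silences no gene, and the 3 Hdac4-knockdown libraries carried a short hairpin against Hdac4, which the study's account gives as Hdac4-shRNA3 and the sample labels do not number, so that a single hairpin stands for the knockdown. The infected cells were kept as selected stable cultures on ordinary growth medium, and no adipogenic medium is described. Each group had 3 independently prepared RNA samples, so that p-values measure the spread between these preparations.

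In the classical order of adipogenesis, C/EBPβ and C/EBPδ are induced early and switch on PPARγ and C/EBPα, which then maintain each other and drive the genes of lipid uptake, binding and storage. Zfp423 is a zinc finger protein that marks committed preadipocytes and promotes expression of Pparg. Osteoblasts and adipocytes share a mesenchymal precursor, and PPARγ activity is known to disfavour the osteoblast lineage.

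Hdac4 itself was at 40.7, 40.2 and 39.9 CPM (counts scaled to library size by the TMM method) in Control replicates 1, 2 and 3, and at 30.7, 28.8 and 29.5 CPM in Hdac4-knockdown. The knockdown libraries thus retained 73.6% of the Control level, with no overlap between the groups (log2 fold change -0.44, SE 0.057, edgeR adjusted p = 8.98e-07). Reads counted on genes ranged from 29096544 to 31651826 per library. Of the 14531 genes with enough counts to be tested, 38.0% were called higher in Hdac4-knockdown and 37.1% lower (adjusted p under 0.05, with a log2 fold change over 0.05 or under -0.05). Genes with at least 1 count numbered 19373 to 19797 in Control and 22148 to 22640 in Hdac4-knockdown. Of the markers behind the osteoblast label, Col1a1, Col1a2, Runx2 and Sparc were counted in all libraries, whereas Alpl had at most 3 counts and Ibsp none in Control.

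Promoters of 6 of the 10 genes were found in RefSeq (GRCm38.p6) as 9 windows of the 250 bases before an annotated start, written 5′ to 3′ on the gene's strand. Those of 4 genes whose RNA moved in opposite directions are shown, Pparg and Cebpa, which were lower in Hdac4-knockdown, and Zfp423 and Cd36, which were higher. For Pparg, the windows of highest and lowest GC among its 3 annotated starts are given, and the deposited counts are summed over all 3 starts. The windows are chr6:115360894-115361143 and chr6:115421816-115422065 for Pparg and chr7:35119043-35119292 for Cebpa, all on the plus strand, and chr8:87959596-87959845 for Zfp423 and chr5:17835897-17836146 for Cd36, both on the minus strand. Capitals mark matches, on either strand, to the TATA box TATAAA, the CCAAT box CCAAT or the GC box GGGCGG, and the last base lies next to the start.
Pparg, start at 115361144: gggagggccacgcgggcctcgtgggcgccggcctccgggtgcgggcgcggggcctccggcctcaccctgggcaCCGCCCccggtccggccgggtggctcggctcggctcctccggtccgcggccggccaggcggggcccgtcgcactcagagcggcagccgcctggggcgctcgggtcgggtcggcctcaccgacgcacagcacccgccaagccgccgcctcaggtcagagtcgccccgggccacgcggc
Pparg, start at 115422066: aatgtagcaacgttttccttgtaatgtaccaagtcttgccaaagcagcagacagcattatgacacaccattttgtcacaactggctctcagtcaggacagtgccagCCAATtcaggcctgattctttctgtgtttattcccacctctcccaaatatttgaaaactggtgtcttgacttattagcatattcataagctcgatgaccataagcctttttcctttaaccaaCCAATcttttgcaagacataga
Cebpa: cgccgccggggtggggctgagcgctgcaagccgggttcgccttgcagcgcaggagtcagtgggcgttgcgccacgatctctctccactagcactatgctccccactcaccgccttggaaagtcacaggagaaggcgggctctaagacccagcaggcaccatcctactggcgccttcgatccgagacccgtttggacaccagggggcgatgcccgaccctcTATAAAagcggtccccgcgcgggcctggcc
Zfp423, start at 87959595: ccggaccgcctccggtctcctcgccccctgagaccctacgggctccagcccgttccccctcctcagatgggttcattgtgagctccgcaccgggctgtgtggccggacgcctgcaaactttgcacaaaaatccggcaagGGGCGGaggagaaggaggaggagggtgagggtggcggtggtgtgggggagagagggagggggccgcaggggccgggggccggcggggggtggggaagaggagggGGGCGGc
Cd36: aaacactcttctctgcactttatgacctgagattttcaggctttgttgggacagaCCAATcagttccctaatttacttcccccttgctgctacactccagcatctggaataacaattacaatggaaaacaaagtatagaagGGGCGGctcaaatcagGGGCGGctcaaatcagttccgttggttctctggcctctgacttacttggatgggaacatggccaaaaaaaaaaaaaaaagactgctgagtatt
The Pparg windows differed widely in base composition, with 82.4% GC at the first start shown and 40.8% at the other, against a median of 52.4% over 32851 mouse promoters of the same length. The Pparg window not shown, before the start at 115362349, lay between them at 63.6% GC. It held a TATA box 29 bases before the start, a CCAAT box at 83 bases and GC boxes at 210 and 127 bases. The Zfp423 window shown had 71.6% GC, Cebpa 66.4% and Cd36 43.2%. The other Zfp423 window, not shown, before the start at 87804439, had 64.8% GC and a GC box at 62 bases. The Cebpa window held a TATA box 30 bases before the start, a motif found in 12.4% of all promoters. Cd36 held a CCAAT box 195 bases before the start at 17835896, and GC boxes at 109 and 93 bases. That start lies inside the annotated gene, which extends to 17888801 and has 6 transcripts. The deposited counts do not tell its starts apart. The first Zfp423 window held GC boxes at 111 and 7 bases. CCAAT boxes were present in 33.8% of all promoters and GC boxes in 32.7%. The PPAR-RXR repeat, searched as AGGTCA repeated after 1 base, and the C/EBP palindrome TTGCGCAA were present in 0.0335% and 0.164% of all promoters and in none of the 9 windows as spelled. The MEF2 box, CTA and TAG with any 4 bases between, was present in 3.2% of all promoters and in none of these windows. The Pparg window of high GC held a GC box 177 bases before its start, and the other held CCAAT boxes at 144 and 22 bases.

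Among the 10 genes, 9 had enough counts to be tested and Fabp4 had too few. Pparg, Cebpa, Lpl, Fabp5 and Plin2 were lower in Hdac4-knockdown, Cebpd, Zfp423 and Cd36 were higher, and Cebpb was not called. Those 8 calls among 9 tested genes stood beside 75.1% of all tested genes called in either direction, so the count itself lay near the background. The sizes were larger: 6 of the 9 were called with a log2 fold change beyond 1, against 27.1% of all tested genes. The median size over the 9 was 1.51 on the log2 scale, against 0.46 over all tested genes. The 10 genes were chosen with earlier results of these data known, so this difference in size is not an independent result. By direction, 3 were higher and 3 lower beyond 1, against 16.5% and 10.6% of all tested genes, and 3 higher and 5 lower beyond 0.5, against 24.6% and 19.8%. For 8 of the 9, the 3 Control and the 3 Hdac4-knockdown libraries did not overlap, as for 76.8% of all tested genes. For these 8, the two-sided exact permutation test gave p = 0.1, the smallest that 3 libraries against 3 allow, so the calls rest on the edgeR quasi-likelihood test across all genes. In RNA from whole cultures, fewer cells expressing a gene and less RNA per cell cannot be told apart.

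**Figure D1:**
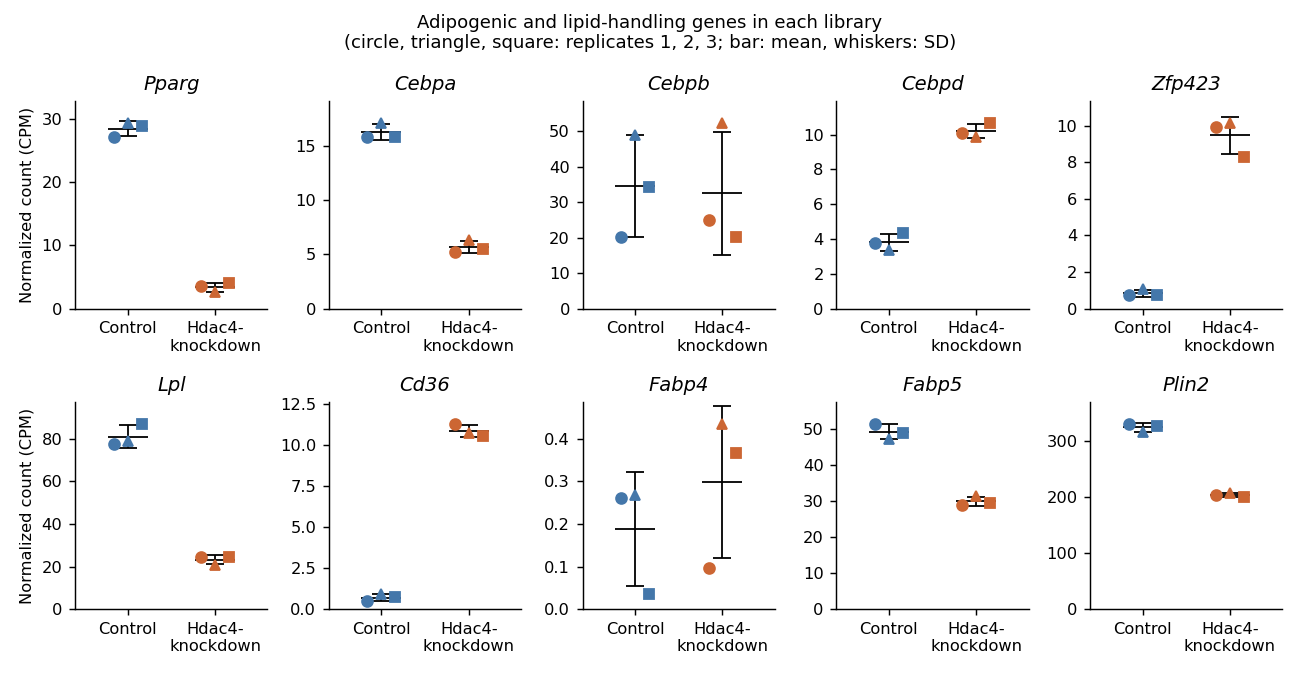
Normalized counts (CPM, vertical axes from 0) of the 10 genes in the 3 Control (blue) and 3 Hdac4-knockdown (orange) libraries, with the mean as a bar and the SD as whiskers. The groups overlap for Cebpb and Fabp4 and are separate for the other 8 genes, with Pparg between 27.1 and 29.3 CPM in Control and between 2.64 and 4.05 CPM in Hdac4-knockdown.

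Cebpb and Cebpd encode the C/EBP factors that act first. Cebpb (ENSMUSG00000056501; chromosome 2, 167688915 to 167690418, plus strand, GRCm38) was at 20.2, 48.9 and 34.2 CPM in the Control libraries and at 25.0, 52.3 and 20.2 CPM in Hdac4-knockdown. Replicate 2 was the highest of its group on both sides, and the groups overlapped over nearly their whole range. The log2 fold change was -0.08 (SE 0.263, edgeR adjusted p = 0.802), with means of 34.4 ± 14.4 CPM (SD, n = 3) in Control and 32.5 ± 17.3 CPM (SD, n = 3) in Hdac4-knockdown. Its direction was not fixed by these libraries: leaving out one library at a time gave values from -0.60 to 0.26, and without replicate 2 of Hdac4-knockdown the gene was called lower (-0.60, edgeR adjusted p = 0.00725). No difference in Cebpb was therefore detectable with this spread.

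Cebpd (ENSMUSG00000071637; chromosome 16, 15887286 to 15891031, plus strand) was at 3.76, 3.34 and 4.32 CPM in Control and at 10.1, 9.87 and 10.7 CPM in Hdac4-knockdown. Every knockdown library was above every Control library. The gene rose 2.68-fold (log2 fold change 1.42, SE 0.121, edgeR adjusted p = 2.19e-09), and 19.3% of tested genes had a larger change in size. Both genes share exon bases with a gene on the opposite strand, and the library kit did not keep strand, so reads there cannot be assigned. Cebpb shares 312 of its 1504 exon bases with Tmem189, which had a log2 fold change of -0.01 (edgeR adjusted p = 0.949). Cebpd shares 562 of 3746 with Spidr, which was lower in Hdac4-knockdown (log2 fold change -0.37, edgeR adjusted p = 3.59e-05), opposite to Cebpd.

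The spread of Cebpb between libraries of the same group was the largest of any gene counted at this depth. Its pooled within-group SD was 0.672 on the log2 CPM scale, first among 8288 genes with a mean of at least 500 counts, whose median SD was 0.0617. The deviations from the group mean were -0.67, 0.59 and 0.08 for Control replicates 1, 2 and 3 and -0.25, 0.80 and -0.55 for Hdac4-knockdown. Cebpa deviated by at most 0.14 and Cebpd by at most 0.17 in size. Cebpb transcripts are rich in GC (67.2%), as are those of Cebpa (62.6%), and less so those of Cebpd (51.6%). The 19 genes of at least 65% GC among the 8288 include Cebpb itself. Over these 19, the median deviation was highest in replicate 2 of each group, at 0.10 in Control and 0.09 in Hdac4-knockdown. Over the 2196 genes under 45% GC it was lowest there, at -0.02 and -0.07. The part of base composition in the spread of Cebpb was not tested, and an adjustment for GC, chosen after seeing the data, left Cebpb uncalled (log2 fold change -0.17, edgeR adjusted p = 0.49).

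**Figure D2:**
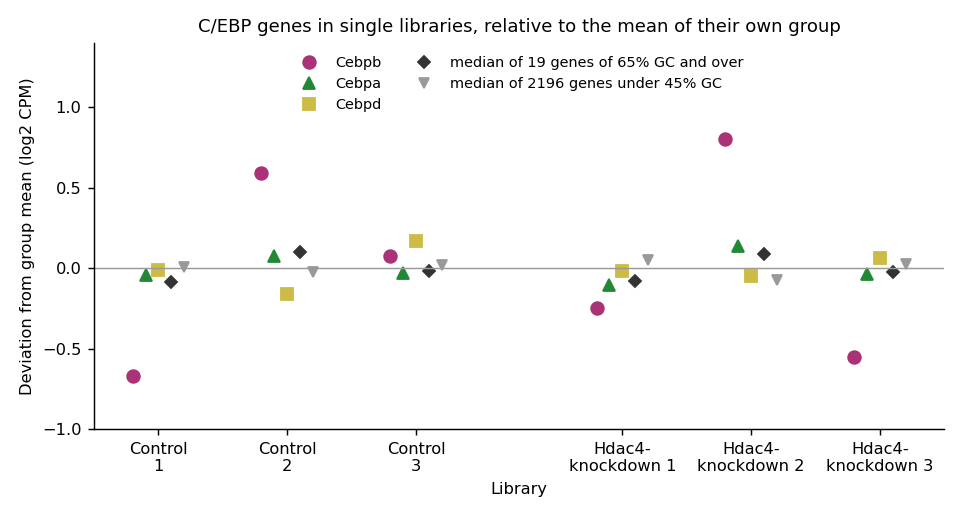
Deviation of Cebpb, Cebpa and Cebpd from the mean of their own group in each library (vertical axis, log2 CPM), with the median deviation of 19 GC-rich and 2196 GC-poor genes of at least 500 counts on average. The 19 include Cebpb. Cebpb ranges from -0.67 to 0.80, and replicate 2 is its highest library in both groups, whereas Cebpa and Cebpd stay within 0.17 of 0.

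Pparg and Cebpa are the pair that maintains the adipocyte program. Pparg (ENSMUSG00000000440; chromosome 6, 115360951 to 115490399, plus strand), the nuclear receptor PPARγ, was at 27.1, 29.3 and 28.9 CPM in Control and at 3.52, 2.64 and 4.05 CPM in Hdac4-knockdown. The highest knockdown library was far below the lowest Control library. The level fell 8.36-fold, to 12.0% of Control (log2 fold change -3.07, SE 0.110, edgeR adjusted p = 2.42e-15), and 6.37% of tested genes had a larger change in size. Cebpa (ENSMUSG00000034957; chromosome 7, 35119293 to 35121928, plus strand), which encodes C/EBPα, was at 15.8, 17.1 and 15.9 CPM in Control and at 5.27, 6.30 and 5.55 CPM in Hdac4-knockdown. All knockdown libraries were below all Control libraries. Its level fell 2.85-fold (log2 fold change -1.51, SE 0.0982, edgeR adjusted p = 3.36e-11). Cebpa shares 51 of its 2636 exon bases with the antisense gene Gm45091, which had at most 12 counts in any library.

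Zfp423 (ENSMUSG00000045333; chromosome 8, 87661810 to 87959595, minus strand), the preadipocyte zinc finger factor, moved against Pparg. It was at 0.720, 1.07 and 0.737 CPM in Control, from 22, 32 and 21 counts, and at 9.95, 10.15 and 8.305 CPM in Hdac4-knockdown, from 308, 327 and 250 counts. The gene was low in every Control library and well counted in every knockdown library. The rise was 11.25-fold (log2 fold change 3.48, SE 0.176, edgeR adjusted p = 5.53e-13), and 4.9% of tested genes had a larger change in size. Among the 5 regulators, therefore, Cebpd and Zfp423 rose, Pparg and Cebpa fell and Cebpb was not called.

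Ratios within a library, which do not depend on the scaling of libraries, placed the C/EBP genes side by side. The log2 ratio of Cebpd to Cebpb counts, with 0.5 added to each, was -2.42, -3.87 and -2.98 in Control and -1.31, -2.40 and -0.92 in Hdac4-knockdown. Every knockdown library was above every Control library, by a narrow gap. The difference of the means was 1.54 (two-sided exact permutation p = 0.1, the smallest possible, and 0.15 adjusted over 3 ratios). The log2 ratio of Cebpa to Cebpb was -0.35, -1.51 and -1.10 in Control and -2.24, -3.05 and -1.86 in Hdac4-knockdown. The knockdown libraries were all lower, with a difference of -1.40 (two-sided exact permutation p = 0.1, adjusted 0.15). Both ratios carry the wide spread of Cebpb.

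Lpl and Cd36 act in the supply of fatty acids from outside the cell, and moved in opposite directions. Lpl (ENSMUSG00000015568; chromosome 8, 68880491 to 68907448, plus strand) encodes lipoprotein lipase, the secreted enzyme that releases fatty acids from lipoprotein triglyceride. It was at 77.4, 78.75 and 87.0 CPM in Control and at 24.4, 20.85 and 24.55 CPM in Hdac4-knockdown, with every knockdown library below every Control library. The level fell 3.48-fold (log2 fold change -1.80, SE 0.0666, edgeR adjusted p = 3.86e-15). Cd36 (ENSMUSG00000002944; chromosome 5, 17781690 to 17888801, minus strand), a scavenger receptor and fatty acid translocase of the plasma membrane, was at 0.491, 0.936 and 0.737 CPM in Control and at 11.3, 10.7 and 10.6 CPM in Hdac4-knockdown. Control counts were 15, 28 and 21, and knockdown counts were 349, 346 and 318. The rise of 15.1-fold was the largest among the 9 tested genes (log2 fold change 3.91, SE 0.172, edgeR adjusted p = 6.37e-14), and 3.77% of all tested genes had a larger change in size. Cd36 and Zfp423 had more than 10 counts in every library, so their passing the filter did not rest on the knockdown group.

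Fabp4 and Fabp5 encode cytosolic fatty acid-binding proteins and lie near each other on chromosome 3. Fabp5 (ENSMUSG00000027533; 10012548 to 10016607, plus strand), the epidermal form with broad expression, was at 51.4, 47.3 and 49.0 CPM in Control and at 29.02, 31.3 and 29.6 CPM in Hdac4-knockdown. The groups were separate, and Fabp5 fell 1.64-fold (log2 fold change -0.72, SE 0.0581, edgeR adjusted p = 1.06e-09). Fabp4 (ENSMUSG00000062515; 10204088 to 10208576, minus strand), the adipocyte form and a classical PPARγ target, had 8, 8 and 1 counts in Control and 3, 14 and 11 in Hdac4-knockdown. The groups overlapped and no library had more than 14 counts. Summed over libraries, 17 counts in Control (95% exact Poisson interval 9.90 to 27.2) stood against 28 in Hdac4-knockdown (18.6 to 40.5). The ratio per count on genes was 1.63, with an interval of 0.864 to 3.18 that covers counting error only. A difference in Fabp4 was not detectable at this depth. The log2 ratio of Fabp4 to Fabp5 differed by 1.46 between the groups, with overlapping libraries (two-sided exact permutation p = 0.3). It was 0.655 without replicate 3 of Control, which had 1 Fabp4 count, and 2.06 without replicate 1 of Hdac4-knockdown.

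Plin2 (ENSMUSG00000028494; chromosome 4, 86648386 to 86670060, minus strand) encodes perilipin 2, a coat protein of lipid droplets in most cell types. It was at 331, 316 and 327 CPM in Control and 203.5, 207 and 201 CPM in Hdac4-knockdown. The libraries of each group lay close together and the groups were separate. Plin2 fell 1.59-fold (log2 fold change -0.67, SE 0.039, edgeR adjusted p = 5.79e-12), with means of 324.5 ± 7.75 CPM (SD, n = 3) and 204 ± 3.035 CPM (SD, n = 3). Among the 4 tested genes of lipid handling, Cd36 thus rose and Lpl, Fabp5 and Plin2 fell. Outside Cebpb, each tested gene among the 10 kept its direction and its call in the edgeR fits without any one library.

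**Figure D3:**
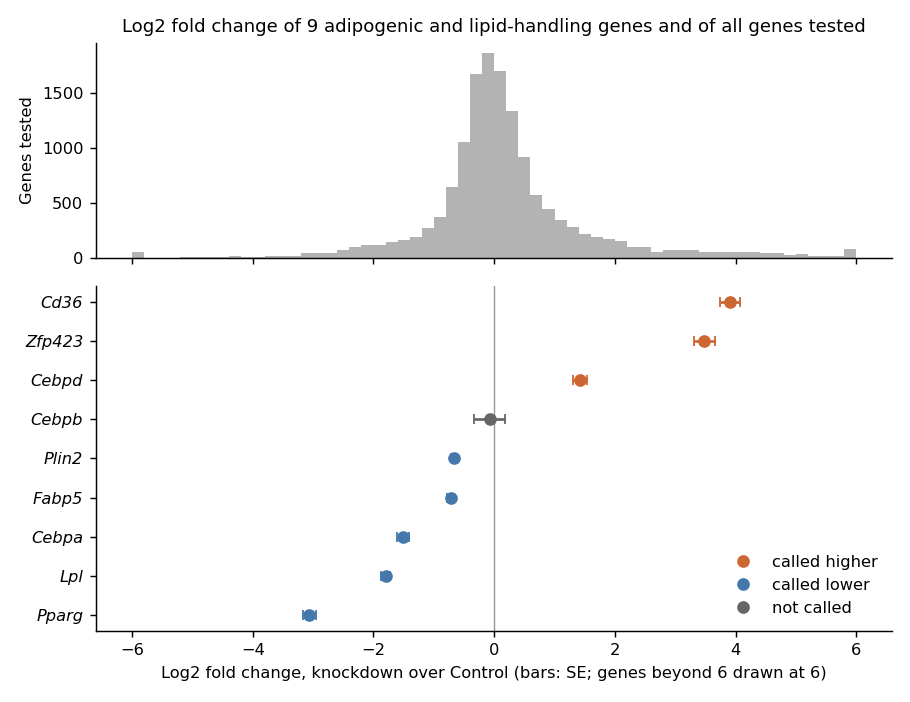
Log2 fold change of the 9 tested genes, Hdac4-knockdown over Control, with the standard error as bars (lower panel), beneath the distribution of log2 fold changes of all 14531 tested genes in counts per bin (upper panel). Cd36 (3.91), Zfp423 (3.48) and Pparg (-3.07) lie in the tails of the distribution, whereas Cebpb (-0.08) lies near its centre.

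Levels of different genes were compared as CPM per kilobase of exon, with the union of all annotated exons as the length. In Control, Plin2 was highest at 92.4 ± 2.21 CPM per kilobase (SD, n = 3), followed by Cebpb (22.9), Fabp5 (13.8), Pparg (9.63), Lpl (7.74), Cebpa (6.18), Cebpd (1.02), Cd36 (0.201), Zfp423 (0.150) and Fabp4 (0.0419). Cebpb and Fabp5 overlapped between libraries, as did Cd36 and Zfp423, whereas the other neighbours in this order did not. In Hdac4-knockdown, Plin2 (58.05), Cebpb (21.6) and Fabp5 (8.401) remained the first 3. They were followed by Cd36 (3.03), Cebpd (2.72), Lpl (2.22), Cebpa (2.16), Zfp423 (1.69), Pparg (1.15) and Fabp4 (0.0666), and there Lpl and Cebpa overlapped. Pparg thus moved from the fourth place to the ninth and Cd36 from the eighth to the fourth.

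The length used matters for genes in which all exons together are much longer than the longest protein-coding transcript. Lpl has 10478 bases of exon in all but 4115 in its longest protein-coding transcript, and Fabp5 has 3567 and 987. Per kilobase of the longest protein-coding transcript, a choice made after seeing the data, Fabp5 (49.9) lay above Cebpb (22.9) in Control, and Lpl (19.7) lay above Pparg (13.4). In Hdac4-knockdown Lpl (5.66) then lay above Cd36 (3.20). On that length Fabp4 (0.210) was within the range of Cd36 and Zfp423 in Control, and Plin2 (172) was still highest. Pparg stood ninth of the 10 in Hdac4-knockdown on both lengths, but on the coding length its libraries overlapped those of Zfp423, as those of Zfp423 overlapped Cebpa and those of Fabp5 overlapped Cebpb. In Control, Cebpb and Lpl overlapped on that length.

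**Figure D4:**
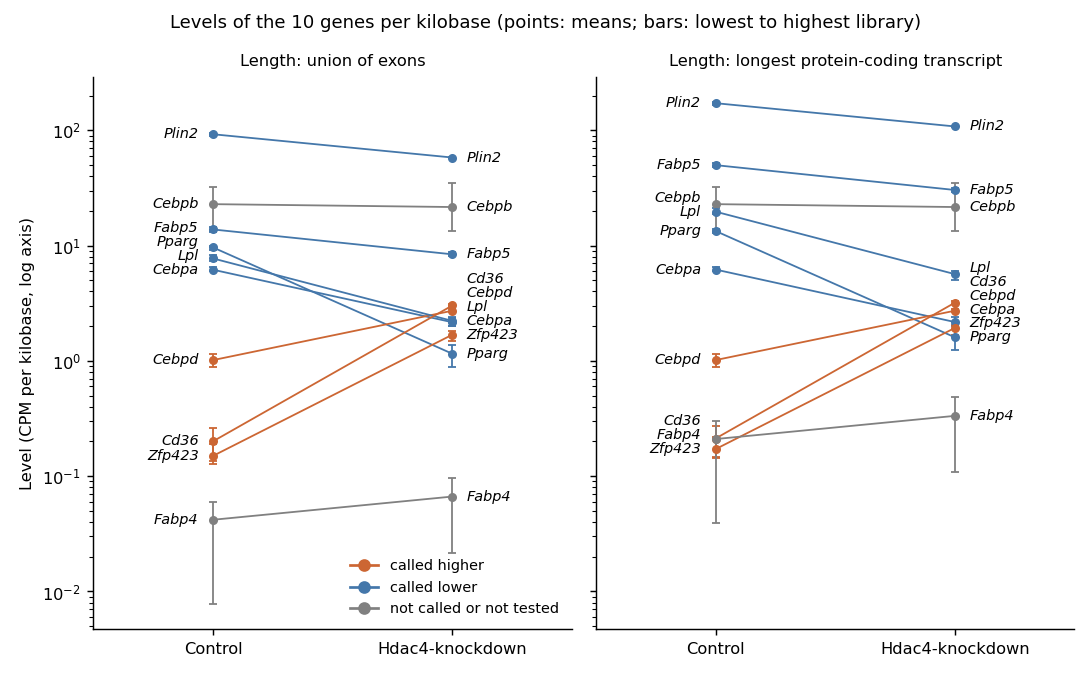
Mean level of each of the 10 genes in Control and Hdac4-knockdown in CPM per kilobase (vertical log axis), by the union of exons (left) and by the longest protein-coding transcript (right), with bars from the lowest to the highest library. Plin2 is highest in every panel and group, and on the union of exons Pparg falls from 9.63 to 1.15 while Cd36 climbs from 0.201 to 3.03.

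Other genes of the pathway were followed in lists that leave out the 10 genes, and their counts are read beside the background of 38.0% higher and 37.1% lower. Genes named here beyond those of the largest change in each list were chosen after their values were seen. Among 9 relatives and partners of the C/EBP and PPAR factors, 6 were tested, with 2 higher, 1 lower and 3 not called. Rxra, the dimer partner of PPARγ, rose from 61.5 ± 2.46 to 115.4 ± 6.71 CPM (SD, n = 3; log2 fold change 0.91). Cebpg, with overlapping groups, was called higher by 0.16 (edgeR adjusted p = 0.0492) and Nr1h2 lower by 0.13. The Cebpg call was lost in 8 of 17 alternative fits, among them those without each Control library and without replicate 1 or 3 of Hdac4-knockdown, and the Nr1h2 call in 6. Ppard, the related receptor PPARδ, was not called (log2 fold change -0.06), and Ppara and Rxrg had at most 2 counts in any library.

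Factors known to promote adipogenesis moved both ways. Of 26, 21 were tested, with 8 higher, 9 lower and 4 not called, and their median log2 fold change was -0.05, against 0.01 over all tested genes. Nfia, a nuclear factor I gene of the brown adipocyte program, rose from 33, 43 and 44 counts to 403, 288 and 341 (log2 fold change 3.03, edgeR adjusted p = 4.56e-12). Ebf3, of the early B-cell factor family, fell from 556, 676 and 486 counts to 156, 154 and 152 (-1.96, edgeR adjusted p = 4.43e-12). Its relative Ebf1 fell (-1.11), as did Klf5 (-1.34), whereas the glucocorticoid receptor gene Nr3c1 rose (0.91). Factors known to restrain adipogenesis had 8 higher, 9 lower and 1 not called of 18 tested and a median of -0.05. Beyond a log2 fold change of 1, promoting factors had 3 higher and 3 lower calls of 21 tested, and restraining factors 6 higher and 2 lower of 18. Over all tested genes, 16.5% were higher and 10.6% lower at that limit. The difference between the 2 lists was not tested. Upper quartile normalization and scaling to library size alone turned the medians of these lists and of the C/EBP and PPAR relatives (-0.01) slightly positive, with values up to 0.08.

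Zfp521, the relative of Zfp423 that opposes its action in preadipocytes, rose by nearly the same measure. Its counts were 26, 31 and 13 in Control and 278, 294 and 267 in Hdac4-knockdown, with no overlap (log2 fold change 3.51, SE 0.187, edgeR adjusted p = 1.40e-12). Wnt10b, a Wnt ligand that blocks adipogenesis, rose from 20.2 ± 0.122 to 88.2 ± 2.66 CPM (SD, n = 3; log2 fold change 2.13, edgeR adjusted p = 8.84e-18). Gata3 (-1.76) and Gata2 (-0.81), repressors of preadipocyte conversion, fell. Dlk1, the preadipocyte factor Pref-1, had no count in any library, which allows up to 3 counts per library.

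Genes around lipoprotein lipase included the widest change of any list. Of 16 lipase partners and lipoprotein receptors, 9 were tested, with 6 higher and 3 lower. Vldlr, a receptor that takes up triglyceride-rich lipoproteins alongside lipoprotein lipase, had 25, 21 and 19 counts in Control and 839, 942 and 872 in Hdac4-knockdown. The groups were wide apart (log2 fold change 5.28, SE 0.122, edgeR adjusted p = 2.29e-18). Angptl4, a secreted inhibitor of lipoprotein lipase and a PPAR target, had 905, 988 and 883 counts in Control and 193, 183 and 190 in Hdac4-knockdown, a fall in the direction of Lpl itself (log2 fold change -2.36, edgeR adjusted p = 1.73e-15). Endothelial lipase, Lipg, fell by 2.06 on the log2 scale. Gpihbp1, which holds lipoprotein lipase on capillary walls, and the apolipoproteins Apoc2 and Apoc3 had no count in any library.

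Of 12 other intracellular lipid-binding proteins, Crabp2 and Fabp3 were the 2 with enough counts to test. Crabp2, a retinoic acid carrier, rose from 25.3 ± 1.97 to 380.4 ± 15.9 CPM (SD, n = 3; log2 fold change 3.91), and Fabp3, the heart form, was not called (-0.38, edgeR adjusted p = 0.426). In fatty acid transport and activation, 5 genes were higher, 5 lower and 2 not called of 12 tested. Slc27a3, a fatty acid transport protein, rose (2.93), as did Cav1 (1.405), which encodes caveolin 1, the coat protein of caveolae. Acsl4 (-1.42) and Acsl3 (-1.17), long-chain acyl-CoA synthetases, and the transporter Slc27a1 (-0.62) fell, and Acsl1 rose (0.28). Acsl6 had 32 to 38 counts in Control and 0 to 4 in Hdac4-knockdown, and was tested only through the Control libraries. The calls of Acsl5, Acbd3 (both higher) and Dbi (lower) were lost when single libraries were left out, and the higher calls fell to 3 without replicate 2 or 3 of Control or replicate 3 of Hdac4-knockdown.

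Lipid droplet and lipolysis genes were called lower, as Plin2 was, more often than higher, with 9 lower, 4 higher and 3 not called of 16 tested and a median log2 fold change of -0.36. Dgat2, an enzyme of the last step of triglyceride synthesis, fell (-1.47), as did Plin3 (-0.65), the adipose triglyceride lipase gene Pnpla2 (-0.64) and its inhibitors G0s2 (-0.87) and Hilpda (-0.89). Bscl2, the seipin gene of droplet formation (1.94), Lpin1 (1.16), Gpam (0.50) and Dgat1 (0.27) rose. In fatty acid synthesis, 8 were lower, 4 higher and 1 not called of 13 tested, with a median of -0.40. The desaturases Scd2 (-1.09), Fads2 (-1.06) and Scd1 (-0.64) and the synthase Fasn (-0.40) fell, and Acacb (0.57), Elovl6 (0.33), Me1 (0.27) and Acaca (0.11) rose. The Acaca call was lost without replicate 1 or 2 of Control or replicate 1 of Hdac4-knockdown, and the Acacb call without replicate 3 of Hdac4-knockdown. In fatty acid oxidation, 9 were lower, 6 higher and 4 not called of 19, among them Cpt1c (3.45), the brain form of carnitine palmitoyltransferase, and Acadl (-1.17), a long-chain acyl-CoA dehydrogenase.

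Most markers of mature fat cells were nearly absent in both groups. Of 18 matched genes, Retn, Lep, Cfd, Cidea, Mrap and Ucp1 had no count in any library, and 11 in all had at most 3 counts in any library, among them Adipoq (adiponectin), with 1 count in 1 Control library, and Plin1, with 3 in 1 knockdown library. The summed level of the list was 34.2 to 36.4 CPM in Control and 35.3 to 36.6 CPM in Hdac4-knockdown. Within this even sum, mean Agpat2 rose from 18.9 to 30.95 CPM, while Plin4 fell from 10.2 to 2.42 CPM and Car3 from 4.38 to 0.31 CPM. Of 5 tested, Plin4 (-2.07) and Car3 (-3.80) were lower, Agpat2 (0.71) and Gpd1 (0.98) higher and Lipe not called (-0.26). Car3 had 115 to 143 counts in Control and 7 to 13 in Hdac4-knockdown, and was tested only through the Control libraries. Its call was lost at a minimum of 10 counts in every library. Gpd1, tested only through the knockdown libraries, had 7 to 8 counts in Control and 11 to 20 in Hdac4-knockdown. The Gpd1 call was lost in 12 of 17 alternative fits, among them 5 of the 6 without a single library. Changes in Pparg, Cebpa and Lpl were thus measured in cells in which most of the adipocyte markers listed were at or near 0.

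Markers of adipose progenitors included larger changes, with 6 higher, 2 lower and 1 not called of 9 tested. Cd34 rose from 3.04 ± 0.415 to 21.9 ± 1.83 CPM and Pdgfra from 39.5 ± 1.16 to 207 ± 4.53 CPM (SD, n = 3; log2 fold changes 2.85 and 2.39). Icam1, called higher, had 0 to 2 counts in Control and 27 to 35 in Hdac4-knockdown. It was tested only through the latter, so its call is no support. Ly6a, which encodes Sca-1, fell (-2.03), as did Acta2 (-1.07). Among osteoblast markers, 6 were higher, 1 lower and 1 not called of 8 tested. Col1a1 rose by 5.03 and Col1a2 by 2.82 on the log2 scale, and Sparc and Dmp1 by 1.04 and 2.55. Runx2 rose by 0.19 with overlapping groups, and without replicate 2 of Control it was not called. Sp7, which encodes osterix, had 2 to 7 counts in Control and 68 to 112 in Hdac4-knockdown. It was tested only through the latter, so its call is no support. Spp1, osteopontin, fell (-0.62), and Alpl, Bglap, Bglap2 and Ibsp had too few counts to test.

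Cd36 is also expressed by macrophages and endothelial cells, so markers of both were counted. Of 10 macrophage markers, 4 were tested. Cd14 and Cd68 were not called, whereas Lyz2 had 1 to 5 counts in Control and 72 to 95 in Hdac4-knockdown, and Csf1r 3 to 6 and 19 to 23. The summed level of the list was 13.6 to 16.4 CPM in Control and 18.6 to 21.7 CPM in Hdac4-knockdown, and the defining marker Adgre1 had no count in any library. Of 10 endothelial markers, 3 were tested. Egfl7 was not called, whereas Vwf had 3 to 8 counts in Control and 74 to 113 in Hdac4-knockdown, and Pecam1 6 to 7 and 72 to 75. These 4 genes had under 10 counts in every Control library and were tested only through the Hdac4-knockdown libraries, so their calls are no support, and none was tested at a minimum of 10 counts in every library. The summed level of the endothelial list was 0.842 to 1.07 CPM in Control and 6.11 to 7.14 CPM in Hdac4-knockdown, and Emcn and Cldn5 had no count. Vwf and Pecam1 made up most of that sum in Hdac4-knockdown, with means of 3.11 and 2.38 CPM. In the macrophage list the largest rise was that of Lyz2, from a mean of 0.0891 to 2.66 CPM. The higher endothelial sum thus rests largely on the same genes and is no support either. The macrophage sum rests on Lyz2 in part, and so is no support by itself. Its best counted gene, Cd14, which was not called, had means of 12.5 CPM in Control and 14.1 CPM in Hdac4-knockdown. The part of either cell type in the rise of Cd36 was not tested.

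**Figure D5:**
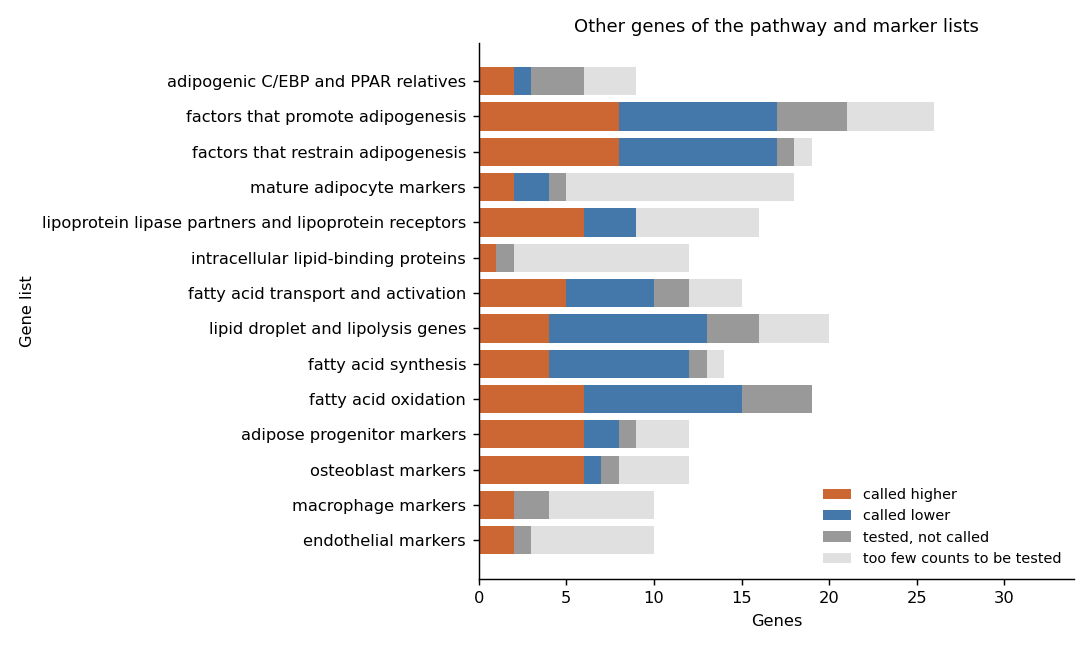
Number of genes (horizontal axis) called higher, called lower, not called or with too few counts to test in 14 lists of pathway genes and cell type markers. Lipid droplet (9 lower, 4 higher) and fatty acid synthesis genes (8 lower, 4 higher) include more lower calls, and 13 of 18 mature adipocyte markers had too few counts. Osteoblast markers include more higher calls (6 against 1). Among those 6, Sp7 was tested only through the Hdac4-knockdown libraries, and the Runx2 call was lost without replicate 2 of Control.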

How the data were processed

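Poly-A RNA of 6 libraries was sequenced from an unstranded kit. The authors deposited raw counts of reads per Ensembl gene without normalization. The submitters' processing notes name FastQC, STAR 2.7.3a, HTSeq 0.12.4 and mm10, whereas the annotation release and the strand setting are not given in the sources used here. The 5 summary lines of each file (14.3 to 15% of reads) were left out. Of 53801 identifiers, 53706 matched GENCODE M21, which gave symbols, GRCm38 positions and lengths.

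Counts were compared in all 6 libraries with edgeR 4.0.16 in R 4.3.3 (TMM, filterByExpr, quasi-likelihood F test, Benjamini-Hochberg adjustment over 14531 genes). The fit was checked on simulated data in which few genes changed and all had the same dispersion. That check does not cover data in which most genes are called, as here. Genes were called at an adjusted p below 0.05 and an absolute log2 fold change over 0.05. Values are mean ± SD. Counting intervals cover counting error only. The 10 genes, the 14 lists (212 of 213 genes matched) and the tests were chosen with earlier results of these data known. Named genes were Hdac4, the 10 genes and, per list, the 2 called genes of largest change with a mean of at least 100 counts and separate groups. Exceptions are stated, and 1 list gene counted among the calls is not reported here by itself.

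Alternatives were DESeq2 1.42.0 and its size factors, upper quartile and library-size scaling, limma-voom (limma 3.58.1), a looser filter (1 count in all) and a stricter one (10 counts in each library), a replicate block, fold change limits of 0, 0.5 and 1, and dropping single libraries in turn. For ratios a pseudocount of 1 replaced 0.5, and for levels the longest transcript replaced the union of exons. GC adjustment, alone and with the block, leaving out both replicate 2 libraries, and coding-transcript length were added after seeing the data. Permutation tests used scipy 1.17.1 and figures matplotlib 3.10.9.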

Additional observations from a re-analysis of the deposited data

Results flagged for a closer look

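Reads that HTSeq assigned to no annotated feature, which the comparisons do not use, averaged 3.28% of counted reads in Control and 4.79% in Hdac4-knockdown. The share was above that of the Control libraries in every knockdown library (3.17 to 3.41% against 4.64 to 5.07%). Reads in introns and reads between genes cannot be told apart in this share.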

How the results depend on the processing

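Of 10 genes, the 8 called ones kept direction and call under every alternative fit, except that thresholds above their log2 fold change removed some: 3 of the 5 lower calls passed a threshold of 1. At thresholds of 0.5 and 1, the genes called over the whole table fell to 3579 and 2397 higher and 2879 and 1543 lower. Leaving out each library gave 5370 to 5519 higher and 5165 to 5402 lower over all genes, and 3 higher and 5 to 6 lower among the 10. The sixth was Cebpb, called without replicate 2 of Hdac4-knockdown. Its log2 fold change turned positive with upper quartile normalization (0.0147, edgeR adjusted p = 0.963), without replicate 2 of Control (0.26), and without replicate 1 (0.09) or 3 (0.18) of Hdac4-knockdown, and ranged from -0.60 to 0.26 over the libraries left out. Without both replicate 2 libraries it was -0.26 (edgeR adjusted p = 0.098). The cause was not tested.

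The labels do not say that replicate numbers pair the groups, and deviations of same-numbered libraries were hardly correlated across all genes (-0.01, 0.03 and 0.02). Some genes still deviated alike: the replicate 2 libraries shared a direction in Cebpb and in the medians of GC-rich genes, Cebpb among them, and of GC-poor genes. With the replicate number as a block, 3 of the 10 genes were higher and 5 lower, and Cebpb was at -0.11 (edgeR adjusted p = 0.38). Upper quartile normalization gave 6316 higher and 4608 lower genes and moved the median log2 fold change of all genes from 0.01 to 0.10. At 3 libraries a group, single-gene permutation tests cannot pass 0.1, and depth limits Fabp4. Of 120 calls in the lists, 21 were lost in at least 1 alternative fit, 12 of them when a library was left out.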
